A study of Homo sapiens with 6 samples.

Results

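The translation factors and aminoacyl-tRNA synthetases of HMC3 cells are described here by their transcript levels after treatment with C1s-CM. They were chosen by gene symbol from the rows of the deposited count table, with symbols that begin EIF or EEF followed by a digit and symbols of tRNA synthetases such as AARS1, EPRS1 and MARS1. The rule found 53 of the 5117 genes in the table. Of these, 31 are named for initiation, 8 for elongation, 12 are cytosolic synthetases and 2 are mitochondrial synthetases. HMC3 is an established human microglial cell line, labelled wild type, and 6 RNA libraries were sequenced. The cells had been given CM with C1s, the complement serine protease, in 3 libraries (C1s-CM), or CM without C1s in the other 3 libraries (control CM, titled FLAG). The dose, the duration and the cells from which the CM came remain not given in the sources used here, and all libraries come from the same cell line with CM of either kind. The labels do not state that replicates were grown as separate cultures, so a p-value here measures the spread among these 6 libraries, and that spread may be technical.

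Translation starts when the GTPase eIF2 carries the initiator tRNA to the small ribosomal subunit, eIF3 holds the complex together, and the cap-binding complex eIF4F brings in the mRNA. The eEF1A factors then deliver each charged tRNA to the ribosome, and eEF2 moves the ribosome along. The tRNAs are charged by aminoacyl-tRNA synthetases, several of which are joined in a multisynthetase complex, and mitochondria use a mostly separate set. Stress kinases that phosphorylate eIF2, such as PKR and PERK, lower initiation overall while favouring translation of the transcription factor ATF4, which is known to act on several synthetase genes.

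The table was restricted by the authors to genes with an adjusted p of at most 0.05 in their own comparison, so each of these genes had already been called on the same libraries, and genes of these families without a row were not analysed here. Counts in the table summed to between 14195082 and 14961744 in the C1s-CM libraries and between 12730766 and 13863120 in the control CM libraries, which is only part of a library and not its depth. Values below are raw counts, or CPM, the counts of a gene as parts per 1e+06 of the table's counts, TMM-scaled (trimmed mean of M-values). None of the 12 microglial markers looked for has a row (0 of 12), so the labelled cell type could not be checked. Of 18 markers of other cell types 3 have a row, all mesenchymal: COL1A1 averaged 3813 ± 75.4 CPM in C1s-CM and 3741 ± 40.2 CPM in control CM (SD, n = 3 each), PDGFRB averaged 165 ± 4.63 CPM in C1s-CM and 152 ± 1.16 CPM in control CM, and THY1 1084 ± 7.31 CPM in C1s-CM and 977 ± 25.8 CPM in control CM. PDGFRB and THY1 were called higher and COL1A1 was not called. After offsets for GC content and length, described below, PDGFRB (-0.052) and THY1 (-0.033) were not called and COL1A1 was called lower (-0.19). With libraries scaled by total counts PDGFRB stood at -0.0090, THY1 at 0.026 and COL1A1 at -0.098. What these markers mean for the results below was not tested. In bulk libraries a change in RNA per cell and a change in the share of cells that use a gene cannot be told apart.

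With edgeR's quasi-likelihood test and Benjamini-Hochberg adjustment over all 5116 genes tested, 22 of the 53 translation genes were higher in C1s-CM, 30 were lower and 1, EEF1B2, did not pass the threshold of 0.05. Of all genes tested, 99.4% were called, that is, passed this threshold, 50.9% as higher and 48.5% as lower, so being called says nothing particular about these genes. Initiation factors were more often lower than higher, with 11 higher and 20 lower and a median log2 fold change of -0.22. That balance of calls turned once GC content and length were corrected for, as described below. With values of the representative transcript 13 were then called higher and 6 lower, beside 14.9% and 10.9% of all genes. The longest transcript gave 11 and 8, beside 15.7% and 11.8%, and the coding sequence 16 and 2, beside 21.4% and 14.1%. Called or not, 15 lay above 0 and 16 below with the representative transcript. The median was then -0.017, and 0.041 and 0.087 in the other fits. The 8 genes named for elongation, counted here as elongation factors, include the pseudogene EEF1A1P5, the methyltransferase EEF1AKMT4 and the multisynthetase accessory gene EEF1E1. They gave 4 higher and 3 lower with a median of 0.14, or 4 and 2 with a median of 0.23 without EEF1A1P5. Cytosolic synthetases gave 6 higher and 6 lower with a median of -0.069, and the mitochondrial pair 1 higher and 1 lower. The median over all genes was 0.080. With libraries scaled by their total counts alone the median over all genes was -0.045, and relative to the median of all genes initiation factors stood at -0.30, elongation factors at 0.055 and cytosolic synthetases at -0.15 under either scaling. That scaling called 11 of the 53 higher and 31 lower, beside 26.1% and 49.2% of all genes (75.3% in either direction), and turned the sign of 5 of the 53 (YARS1, WARS1, MARS1, EEF1B2 and EIF3B). The sizes were small: the median absolute log2 fold change was 0.27 over the 53 genes and 0.31 over all genes, and 4 of the 53 reached an absolute value of 0.5. CPM of the groups did not overlap for 51 of the 53, beside 97.2% of all genes, and the exceptions were WARS1 and EIF2B4.

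**Figure D1:**
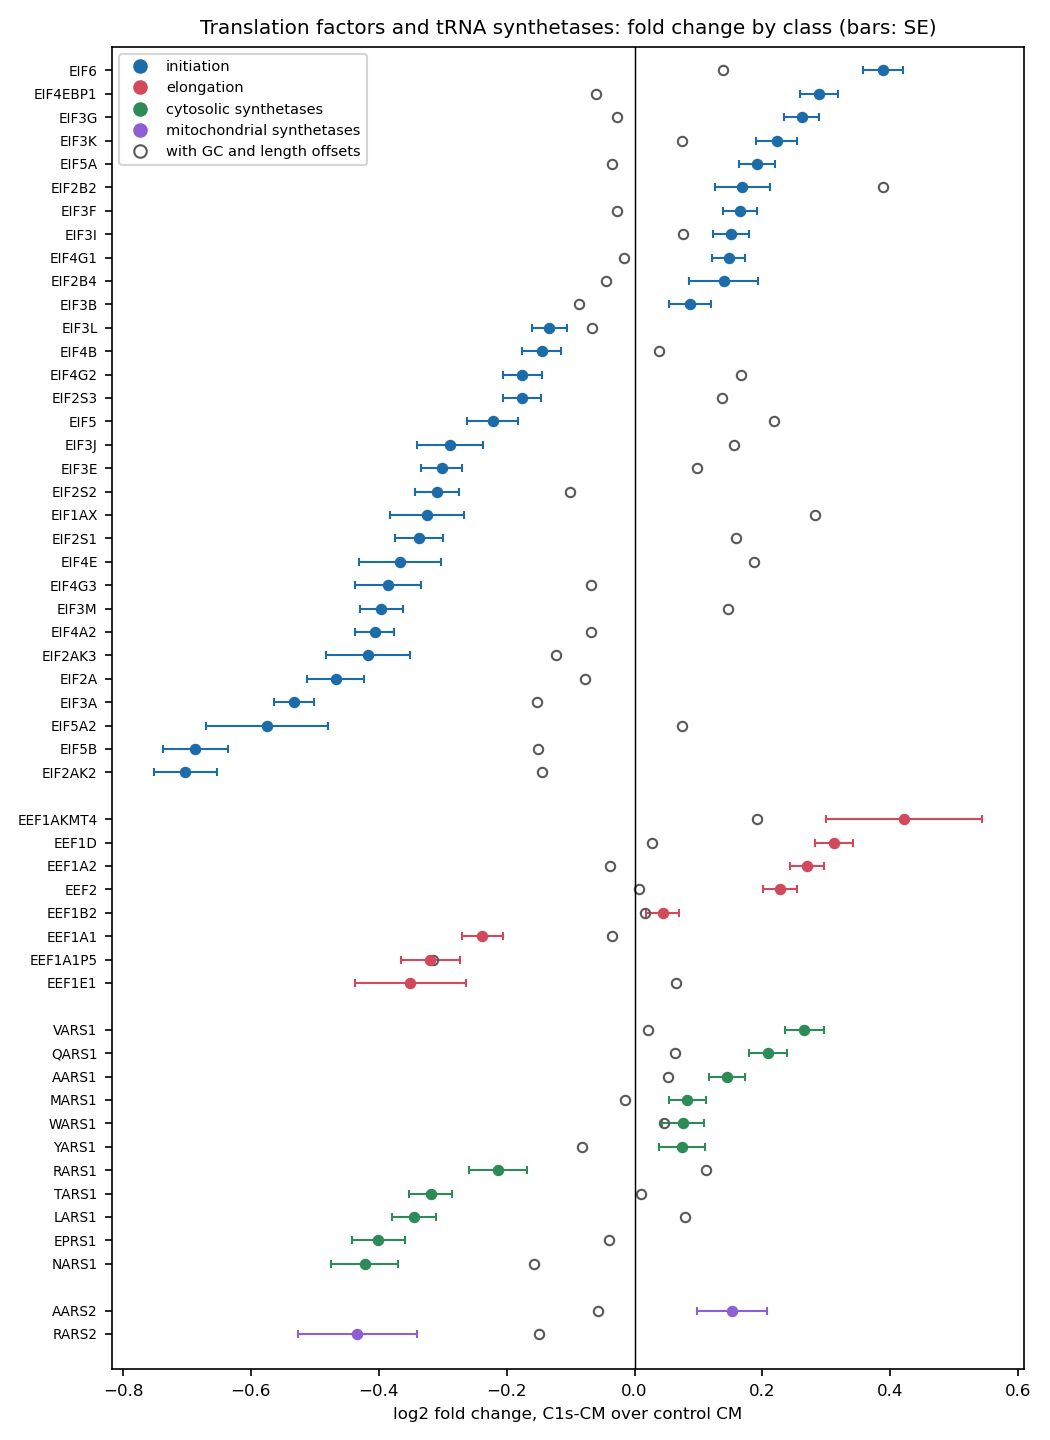
The log2 fold change of C1s-CM over control CM (horizontal axis) is drawn for 52 of the 53 genes, grouped by class and sorted by size, as filled points with the standard error as bars, and open circles give the value after offsets for GC content and length. The filled points run from -0.70 (EIF2AK2) to 0.42 (EEF1AKMT4), and most open circles lie nearer to 0.

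The direction of a gene went with the GC content of its transcript. All 21 translation genes whose representative transcript (1 GENCODE 29 transcript per gene, by principal-isoform and support level) had a GC content of 50% or more had a log2 fold change above 0, and of the 32 with a lower GC content 2 did, EIF2B2 and EEF1B2. Over the whole table the same shares were 98.0% of 2525 genes and 6.15% of 2587 genes, so the translation genes did as the table did. The median GC content was 44.4% for initiation factors, 53.5% for elongation factors, 48.0% for cytosolic synthetases and 49.4% for all genes. A difference in how libraries of each group sampled GC-rich transcripts and an effect of C1s-CM on such transcripts cannot be told apart in this design. The main results below are therefore also given after per-library offsets for GC content and transcript length, a correction that would also take away a biological difference that follows these properties. With these offsets 14 of the 53 were higher, 8 lower and 31 not called, beside 25.8% of all genes called, 14.9% as higher and 10.9% as lower. Of the 52 called before, 11 kept their direction, 11 were called in the opposite direction and 30 were no longer called. With offsets from the longest transcript of each gene 11 were higher and 13 lower (27.5% of all genes called, 15.7% higher and 11.8% lower), and with offsets from the coding sequence 28 of 52 were higher and 2 lower (35.5% of all genes called, 21.4% higher and 14.1% lower).

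**Figure D2:**
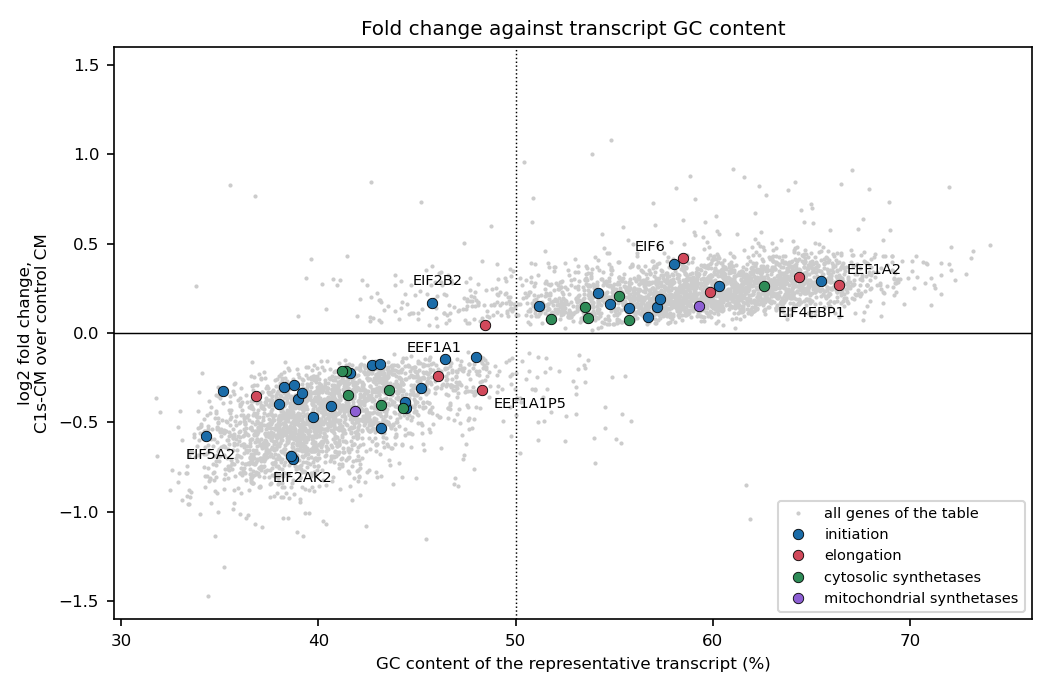
The log2 fold change of C1s-CM over control CM (vertical axis) is plotted against the GC content of the representative transcript in percent (horizontal axis), with all genes in grey and the translation genes coloured by class; 6 genes with an absolute value over 1.5 lie outside the axes. The translation genes lie within the grey cloud, above 0 to the right of 50% and, apart from EIF2B2 and EEF1B2, below 0 to the left of it.

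Among initiation factors, the 3 subunits of eIF2 were all called lower in C1s-CM, beside 48.5% of all genes. EIF2S1, the alpha subunit that the stress kinases phosphorylate, averaged 125 ± 5.74 CPM in C1s-CM and 158 ± 2.91 CPM in control CM (SD, n = 3 each), a log2 fold change of -0.34 ± 0.0379 (SE), adjusted p = 2.76e-08. EIF2S2, the beta subunit, had a log2 fold change of -0.31 and EIF2S3, the GTP-binding gamma subunit, -0.18. The offsets split the complex: EIF2S1 and EIF2S3 were then called higher, at 0.16 and 0.14, and EIF2S2 stayed lower at -0.10. In each of the 3 offset fits without a replicate block EIF2S1 and EIF2S3 were called higher, while EIF2S2 was called higher, at 0.17, when GC content and length were taken from the coding sequence.

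EIF2AK2 encodes PKR, the kinase that phosphorylates eIF2 alpha on binding double-stranded RNA and is itself an interferon-induced gene (ENSG00000055332, GRCh38 chromosome 2, 37099210 to 37157065, reverse strand). It had 929, 851 and 898 counts in the C1s-CM libraries, against 1335, 1479 and 1590 counts in the control CM libraries. Every C1s-CM library lay below every control CM library, and the log2 fold change of -0.70 ± 0.0498 (SE), adjusted p = 1.99e-11, was the lowest of the 53. Its transcript has a GC content of 38.7%, and with offsets the value was -0.14 (adjusted p = 0.0219), but with offsets from coding sequences it was -0.094, not called. EIF2AK3, which encodes the endoplasmic reticulum stress kinase PERK, had 408, 403 and 423 counts in the C1s-CM libraries, against 506, 562 and 596 counts in the control CM libraries. It too was lower without overlap, with a log2 fold change of -0.42 ± 0.0663 (SE), adjusted p = 4.26e-06, and it was not called with offsets (-0.12, adjusted p = 0.162). The kinase genes EIF2AK1 and EIF2AK4 have no row.

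The exchange factor eIF2B reloads eIF2 with GTP, and its beta and delta subunits were measured. EIF2B2 (ENSG00000119718, GRCh38 chromosome 14, 75002911 to 75012366, forward strand) had 1698, 1977 and 1775 counts in the C1s-CM libraries, against 1608, 1613 and 1666 counts in the control CM libraries. All C1s-CM libraries were higher, at 131 ± 7.16 CPM in C1s-CM and 117 ± 4.47 CPM in control CM (SD, n = 3 each), with a log2 fold change of 0.17 ± 0.0423 (SE), adjusted p = 6.64e-04. EIF2B2 went against the trend of the table, since its representative transcript has a GC content of 45.8%, and its value with offsets, 0.39 (adjusted p = 3.45e-07), was the highest of the 53. Its coding sequence has a GC content of 53.6%, and with offsets taken from coding sequences the value was 0.16, still called, while with libraries scaled by total counts and no offsets it was 0.043, not called. EIF2B4 was higher at 0.14 with overlapping groups, and it was not called without C1s-CM library 3 or without control CM library 3. Count ratios of gene pairs, given here and below, are of pairs chosen after their values were seen and were not tested. Within a library there were 1.04, 1.06 and 1.03 EIF2B2 counts for each EIF2S1 count in C1s-CM, against 0.775, 0.707 and 0.731 in control CM.

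EIF5B, EIF5, EIF1AX and EIF2A, listed together here though their roles differ, were called lower in 4 of 4, beside 48.5% of all genes. Their transcripts each have a GC content under 50%, and 6.15% of such genes in the table had a log2 fold change above 0. With offsets from the representative transcript 2 of the 4 were called higher and 1 lower, beside 14.9% and 10.9% of all genes. EIF5B, the GTPase that joins the large subunit, had 819, 947 and 878 counts in the C1s-CM libraries, against 1262, 1504 and 1534 counts in the control CM libraries. Every C1s-CM library was below every control CM library, with a log2 fold change of -0.69 ± 0.0506 (SE), adjusted p = 3.46e-11, and -0.15 with offsets (adjusted p = 0.0257). With offsets from coding sequences EIF5B was at -0.062 and not called. EIF5, which makes eIF2 hydrolyse its GTP at the start codon, had 1518, 1611 and 1437 counts in the C1s-CM libraries, against 1752, 1754 and 1863 counts in the control CM libraries. After scaling it was lower in every C1s-CM library, with a log2 fold change of -0.22 ± 0.0399 (SE), adjusted p = 2.09e-05, but 0.22 with offsets (adjusted p = 2.77e-04), and it was called higher in each of these 3 offset fits. EIF1AX, a scanning factor with a GC content of 35.1%, stood at -0.32 and at 0.28 with offsets. With offsets from coding sequences EIF1AX was at 0.062 and not called. EIF2A, a separate initiator tRNA-binding protein despite its name, stood at -0.47 and was not called with offsets (-0.077). With offsets from the longest transcript EIF2A was called lower, at -0.16.

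The 10 measured subunits of eIF3 fell into 5 higher (EIF3G, EIF3K, EIF3F, EIF3I and EIF3B) and 5 lower (EIF3A, EIF3M, EIF3E, EIF3J and EIF3L), and the higher ones were the ones with a GC content of 50% or more. Of all genes 50.9% were called higher and 48.5% lower. EIF3A, the largest subunit and the core of the complex (ENSG00000107581, GRCh38 chromosome 10, 119033670 to 119080823, reverse strand), had 2470, 2425 and 2415 counts in the C1s-CM libraries, against 3359, 3570 and 3748 counts in the control CM libraries. The groups were far apart for EIF3A, at 176 ± 5.55 CPM in C1s-CM and 255 ± 2.03 CPM in control CM (SD, n = 3 each). The log2 fold change was -0.53 ± 0.0319 (SE), adjusted p = 1.24e-12, and -0.15 with offsets (adjusted p = 4.36e-04). Of the 52 translation genes with a value in each of the 3 offset fits without a replicate block, EIF3A was the 1 called lower in each. The pseudogene EEF1A1P5 has no coding sequence value and was called lower with the representative and the longest transcript (-0.31 and -0.38). The count of EIF3A in a library could be set against that of EIF3G, an RNA-binding subunit. The ratio of EIF3G to EIF3A was 3.17, 3.29 and 3.24 in C1s-CM, against 1.90, 1.89 and 1.81 in control CM. EIF3G itself stood at 0.26, and the difference between both genes was 0.79 on the log2 scale before and 0.12 after offsets.

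The other eIF3 subunits lay between EIF3A and EIF3G. EIF3M stood at -0.40, EIF3E at -0.30, EIF3J at -0.29 and EIF3L at -0.13, all called. EIF3K stood at 0.22, EIF3F at 0.17, EIF3I at 0.15 and EIF3B, a scaffold of the core, at 0.087. With offsets EIF3M, EIF3E and EIF3J were called higher and EIF3B lower, each opposite to before, while EIF3I, EIF3K and EIF3L kept their direction and EIF3F was not called. With offsets from the longest transcript EIF3E (0.062) and EIF3J (0.10) were not called, while EIF3M stayed higher and EIF3B lower. With offsets from coding sequences EIF3M and EIF3E stayed called higher, and EIF3J (0.087) and EIF3B (0.058) were not called. The calls of EIF3B, EIF3I, EIF3K and EIF3L were close to the threshold and were lost when a replicate block was added to the offsets. EIF3I and EIF3K were also not called with offsets from the longest transcript, at 0.020 and 0.048, and EIF3L was called higher, at 0.14, with offsets from coding sequences. EIF3F depends on which transcript is used, with -0.027 for the representative and 0.64 for the longest. EIF3B lies at -0.038 where libraries are scaled by their total counts alone, and its call was lost without C1s-CM library 2, control CM library 1 or control CM library 3, so its direction is not settled.

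**Figure D3:**
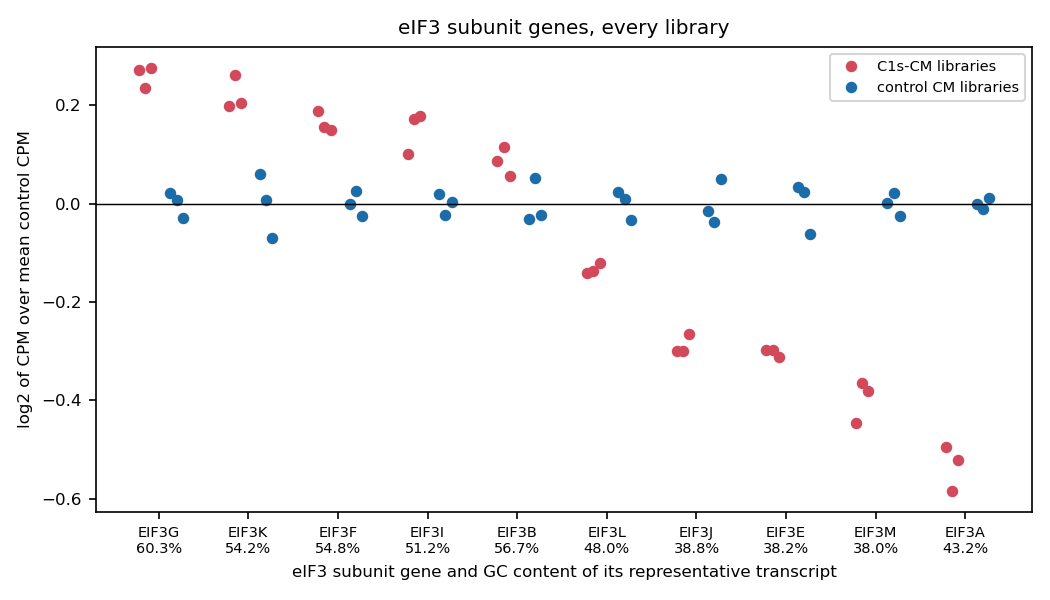
The log2 of CPM over the mean CPM of the control CM libraries (vertical axis) is drawn for each measured eIF3 subunit gene, named with its GC content on the horizontal axis, with 1 point per library and C1s-CM left of control CM. The C1s-CM points of EIF3A lie furthest below those of control CM and those of EIF3G and EIF3K furthest above.

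In the cap-binding group 5 genes were called lower and 1 higher, beside 48.5% and 50.9% of all genes. The 1 higher, EIF4G1, was also the 1 with a GC content of 50% or more. With offsets from the representative transcript 2 of the 6 were called higher and 0 lower, beside 14.9% and 10.9% of all genes. EIF4A2, an RNA helicase, had 3659, 3824 and 3426 counts in the C1s-CM libraries, against 4552, 5009 and 5029 counts in the control CM libraries. The groups did not overlap, and the log2 fold change was -0.41 ± 0.0307 (SE), adjusted p = 5.60e-11, and the value was -0.068 with offsets (adjusted p = 0.0813). Its gene holds several small nucleolar RNA genes within its span, on the same strand. EIF4E, the cap-binding protein, stood at -0.37, and the scaffolds were divided, with EIF4G1 at 0.15 and EIF4G3 at -0.39. Where libraries were scaled by total counts alone EIF4G1 was at 0.022 and not called. EIF4B, which stimulates the helicase, stood at -0.15. With offsets EIF4E was called higher, at 0.19, and EIF4G1 (-0.017), EIF4G3 (-0.068) and EIF4B (0.038) were not called. With offsets from coding sequences EIF4E was at -0.0058 and not called, while EIF4G1 and EIF4B were called higher, at 0.12 and 0.074. With offsets from the longest transcript EIF4G3 was called lower, at -0.18, and EIF4A2 higher, at 0.094. EIF4G2, a related scaffold that does not bind EIF4E, had 4471, 4553 and 4680 counts in the C1s-CM libraries, against 4853, 5241 and 5536 counts in the control CM libraries. After scaling each C1s-CM library was lower, with a log2 fold change of -0.18 ± 0.0303 (SE), adjusted p = 1.22e-05, yet EIF4G2 was at 0.17 with offsets (adjusted p = 9.70e-05) and was called higher in each of the 3 offset fits without a replicate block.

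EIF4EBP1, the inhibitor that holds EIF4E when mTOR signalling is low, had 4416, 4576 and 4456 counts in the C1s-CM libraries, against 3608, 3674 and 3821 counts in the control CM libraries. It was higher in every C1s-CM library, with a log2 fold change of 0.29 ± 0.0296 (SE), adjusted p = 6.51e-09, and not called with offsets (-0.061, adjusted p = 0.12). There were 8.18, 9.53 and 8.75 EIF4EBP1 counts per EIF4E count in C1s-CM, against 5.77, 5.43 and 5.54 in control CM. On the log2 scale the 2 genes differed by 0.66 more in C1s-CM than in control CM, and by -0.25 after offsets, so the sign of that shift turned. EIF4EBP1 transcripts have a GC content of 65.5% and EIF4E transcripts of 39.0%.

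EIF6, which keeps free large ribosomal subunits from joining small ones (ENSG00000242372, GRCh38 chromosome 20, 35278911 to 35284985, reverse strand), had 10888, 12087 and 10905 counts in the C1s-CM libraries, against 8625, 8734 and 8711 counts in the control CM libraries. No library of the groups overlapped, and CPM averaged 815 ± 27.9 CPM in C1s-CM and 623 ± 28.8 CPM in control CM (SD, n = 3 each). Its log2 fold change of 0.39 ± 0.0319 (SE), adjusted p = 2.09e-10, was the highest among initiation factors. The value was still called, at 0.14 with offsets (adjusted p = 6.00e-04), and also at 0.12 and 0.24 in the other offset fits. EIF6 and EIF2B2 were the 2 translation genes called higher in every fit with offsets and in the TMM-scaled comparison without them. EIF5A, the hypusinated factor that helps ribosomes through difficult peptide bonds, stood at 0.19, and its relative EIF5A2 at -0.57, both called. With offsets from the representative or the longest transcript neither was called. With offsets from coding sequences both were called in the direction they had before, EIF5A at 0.17 and EIF5A2 at -0.30. The ratio of EIF5A to EIF5A2 counts was 134, 115 and 119 in C1s-CM, against 75.4, 71.6 and 69.0 in control CM.

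The highest counts among translation genes were those of eEF1A and eEF2. The eEF1A factor comes from a pair of genes, EEF1A1, used in most tissues, and EEF1A2, known for its use in neurons and muscle. Their coding sequences differ mostly at the third codon position: of 1386 aligned bases 1081 (78.0%) were the same, and 252 of the 305 differences lay there, where G or C stood in 89.2% of EEF1A2 codons and 48.3% of EEF1A1 codons. The first 90 coding bases are shown because this difference in GC content runs beside the difference in counts; capitals mark the 17 bases at which the 2 differ. They were read from GENCODE 29 transcripts on GRCh38, from the start codon, 5′ to 3′.
EEF1A2: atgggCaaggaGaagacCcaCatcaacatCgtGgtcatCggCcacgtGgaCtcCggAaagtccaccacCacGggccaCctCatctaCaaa
EEF1A1: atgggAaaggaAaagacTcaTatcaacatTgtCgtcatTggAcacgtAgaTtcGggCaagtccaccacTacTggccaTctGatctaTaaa

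EEF1A2 (ENSG00000101210, GRCh38 chromosome 20, 63488012 to 63499322, reverse strand) had 78983, 84567 and 80535 counts in the C1s-CM libraries, against 65333, 68366 and 70439 counts in the control CM libraries. EEF1A1 (ENSG00000156508, GRCh38 chromosome 6, 73515750 to 73523797, reverse strand) had 119178, 116558 and 108319 counts in the C1s-CM libraries, against 127766, 142541 and 139218 counts in the control CM libraries. In every C1s-CM library EEF1A2 was higher and EEF1A1 lower than in any control CM library. EEF1A2 averaged 5876 ± 80.1 CPM in C1s-CM and 4872 ± 69.8 CPM in control CM (SD, n = 3 each), a log2 fold change of 0.27 ± 0.0265 (SE), adjusted p = 3.29e-09. EEF1A1 averaged 8285 ± 398 CPM in C1s-CM and 9770 ± 286 CPM in control CM, a log2 fold change of -0.24 ± 0.0321 (SE), adjusted p = 4.26e-07. EEF1A2 counts per EEF1A1 count were 0.663, 0.726 and 0.743 in C1s-CM, against 0.511, 0.480 and 0.506 in control CM, which is a 1.42-fold higher mean ratio that does not depend on the scaling of the libraries.

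That shift between EEF1A2 and EEF1A1, 0.51 on the log2 scale, was -0.0025 after offsets, and neither gene was called then (-0.038 and -0.036). This depended on the transcript used: with offsets from the longest transcript EEF1A1 was called lower, at -0.080, and EEF1A2 stood at -0.0045, and with offsets from coding sequences EEF1A2 stood at 0.044 and EEF1A1 at 0.025, neither called. Their transcripts have GC contents of 66.4% and 46.1%. Which of the pair was more abundant depends on the length used: per kilobase of coding sequence EEF1A2 stood at 4230 CPM in C1s-CM and 3508 CPM in control CM and EEF1A1 at 5977 CPM in C1s-CM and 7049 CPM in control CM. Per kilobase of the representative transcript EEF1A2 stood above EEF1A1 in both groups, at 2917 CPM in C1s-CM and 2419 CPM in control CM, with EEF1A1 at 1865 CPM in C1s-CM and 2200 CPM in control CM.

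The table also held EEF1A1P5, a processed pseudogene of EEF1A1 whose sequence is the same as the EEF1A1 coding sequence at 1382 of 1386 bases (99.7%), so reads of the 2 may be shared and its value is uncertain. It had 1639, 1975 and 1745 counts in the C1s-CM libraries, against 2042, 2434 and 2270 counts in the control CM libraries. The log2 fold change was -0.32 ± 0.0463 (SE), adjusted p = 1.21e-06, and -0.31 with offsets (adjusted p = 9.58e-06). There were 0.0138, 0.0169 and 0.0161 EEF1A1P5 counts per EEF1A1 count in C1s-CM, against 0.0160, 0.0171 and 0.0163 in control CM, and these ratios overlapped. GENCODE 29 names 39 pseudogenes of EEF1A1, and its own counts are uncertain where reads were split among them.

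**Figure D4:**
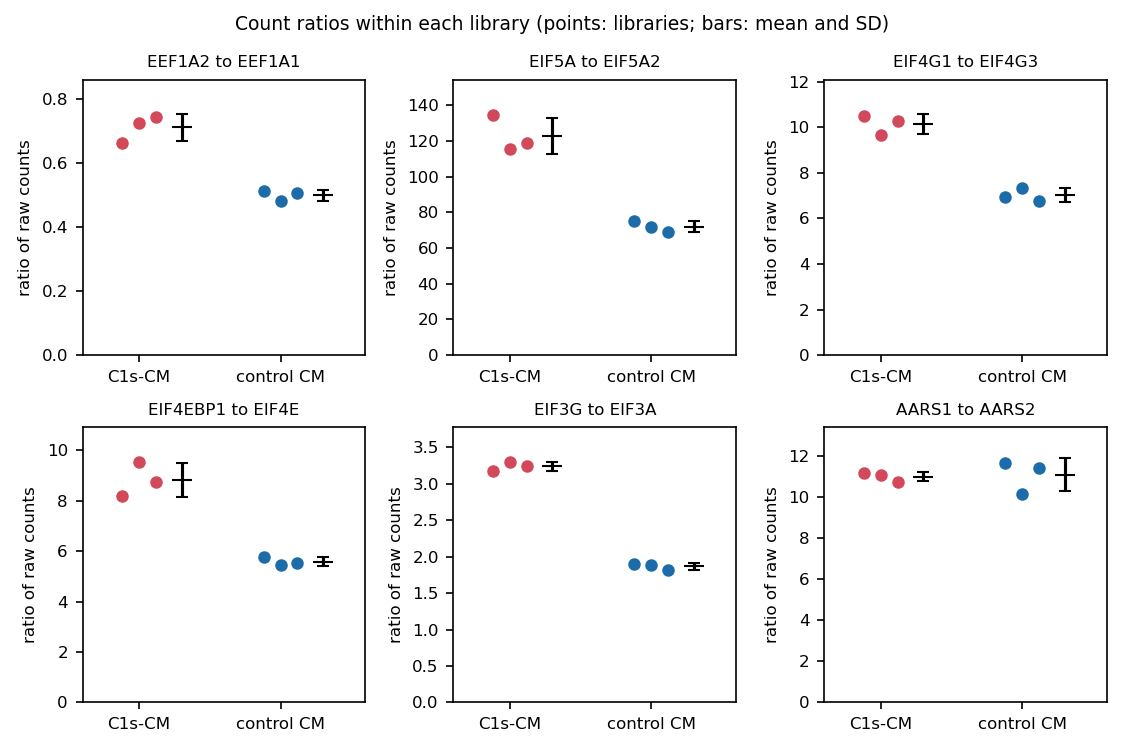
The ratio of raw counts of 2 genes in the same library (vertical axis) is drawn for 6 pairs, with 1 point per library, C1s-CM left of control CM, and the mean and SD (n = 3) as bars. The groups are separate in 5 pairs, such as EEF1A2 to EEF1A1 whose mean was 0.711 for C1s-CM and 0.499 for control CM, and overlap for AARS1 to AARS2 whose mean was 10.99 for C1s-CM and 11.07 for control CM.

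EEF2, the translocase, had 158736, 167850 and 158612 counts in the C1s-CM libraries, against 134210, 139269 and 144619 counts in the control CM libraries. It was higher in every C1s-CM library after scaling, at 11680 ± 76.1 CPM in C1s-CM and 9979 ± 169.9 CPM in control CM (SD, n = 3 each), with a log2 fold change of 0.23 ± 0.0268 (SE), adjusted p = 5.96e-08. EEF2 stood at 0.0073 with offsets (adjusted p = 0.849). EEF1D, a subunit of the complex that reloads eEF1A with GTP, had 7228, 7876 and 7818 counts in the C1s-CM libraries, against 5954, 6227 and 6447 counts in the control CM libraries. Its groups did not overlap either, and its log2 fold change was 0.31 ± 0.0297 (SE), adjusted p = 2.22e-09, and its value was 0.028 with offsets (adjusted p = 0.55). EEF1B2, another subunit of that complex, stood at 0.044, not called (adjusted p = 0.0994), and was lower at -0.081 with libraries scaled by total counts. With offsets from coding sequences EEF1B2 was called higher, at 0.27, and with offsets from the representative transcript it was not called, at 0.016. EEF1E1, which despite its name is known as an accessory protein of the multisynthetase complex, was lower at -0.35.

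EEF1AKMT4, a methyltransferase that acts on eEF1A, had the lowest counts of the elongation class, with 138, 155 and 149 counts in the C1s-CM libraries, against 100, 101 and 132 counts in the control CM libraries. Scaled values did not overlap, and the log2 fold change of 0.42 ± 0.122 (SE), adjusted p = 0.00224, was the highest of the 53, with the largest standard error. It shares its locus with the readthrough gene EEF1AKMT4-ECE2, and it was not called with offsets (0.19, adjusted p = 0.262). With offsets from the representative transcript EEF1A1P5 was the 1 gene of the elongation class that was called. Together the 8 elongation genes took 2.60% to 2.66% of the raw counts of the table in C1s-CM libraries and 2.71% to 2.75% in control CM libraries. After TMM scaling their sum went the other way, at 27149 to 27693 CPM in C1s-CM libraries and 25751 to 26309 CPM in control CM libraries. The direction of the class sum therefore depends on the scaling.

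The cytosolic synthetases were divided in the same way. LARS1, which charges leucine tRNA, had 1789, 1868 and 1803 counts in the C1s-CM libraries, against 2201, 2311 and 2489 counts in the control CM libraries. EPRS1, which charges both glutamate and proline tRNA, had 1575, 1653 and 1530 counts in the C1s-CM libraries, against 1853, 2182 and 2313 counts in the control CM libraries. Both were lower without overlap, with log2 fold changes of -0.35 ± 0.0344 (SE), adjusted p = 4.34e-09 for LARS1 and -0.40 ± 0.0416 (SE), adjusted p = 7.88e-09 for EPRS1. VARS1, the valine enzyme, had 4403, 4657 and 4223 counts in the C1s-CM libraries, against 3585, 3682 and 3876 counts in the control CM libraries. It was higher without overlap, with a log2 fold change of 0.27 ± 0.0302 (SE), adjusted p = 3.20e-08. With offsets from the representative transcript LARS1 stood at 0.079, EPRS1 at -0.041 and VARS1 at 0.021, none called. With offsets from coding sequences all 3 were called higher, LARS1 at 0.17, EPRS1 at 0.12 and VARS1 at 0.097.

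TARS1, the threonine enzyme, had 1996, 2162 and 1951 counts in the C1s-CM libraries, against 2440, 2554 and 2694 counts in the control CM libraries. NARS1, the asparagine enzyme, had 768, 730 and 764 counts in the C1s-CM libraries, against 940, 1051 and 1070 counts in the control CM libraries. Each was lower in every C1s-CM library than in any control CM library, with log2 fold changes of -0.32 ± 0.0341 (SE), adjusted p = 1.26e-08 for TARS1 and -0.42 ± 0.0521 (SE), adjusted p = 1.12e-07 for NARS1. NARS1 was the lowest of the class and stayed called, at -0.16 with offsets (adjusted p = 0.0209), but not where offsets came from coding sequences (-0.049). RARS1, the arginine enzyme, had 967, 1094 and 1019 counts in the C1s-CM libraries, against 1117, 1210 and 1277 counts in the control CM libraries. RARS1 too was lower in every C1s-CM library, with a log2 fold change of -0.21 ± 0.0459 (SE), adjusted p = 1.53e-04. With offsets from the representative transcript RARS1 was not called (0.11, adjusted p = 0.0653). With offsets from coding sequences RARS1 and TARS1 were called higher, at 0.32 and 0.14.

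Among enzymes of the multisynthetase complex QARS1 was higher at 0.21 and MARS1 at 0.083, while EPRS1, LARS1 and RARS1 were lower. QARS1 was not called with offsets from the representative transcript (0.064, adjusted p = 0.0757), but was called higher, at 0.19, with offsets from coding sequences. Outside the complex 4 were higher (VARS1, AARS1 at 0.15, WARS1 at 0.076 and YARS1 at 0.074) and 2 lower (NARS1 and TARS1), beside 50.9% and 48.5% of all genes. The 3 smallest rises, of MARS1, WARS1 and YARS1, turned below 0, to -0.043, -0.049 and -0.051, where libraries were scaled by total counts alone, so the direction of these 3 is not settled. AARS1 kept its sign there but was not called, at 0.020. Leaving out C1s-CM library 3 alone ended the call of all 3, control CM library 2 that of WARS1 and YARS1, control CM library 3 that of WARS1 and C1s-CM library 2 that of YARS1. MARS1 overlaps the stress gene DDIT3 on the opposite strand. The result for the class as a whole rests on the correction used. With offsets from the representative transcript 1 of 12 was called higher and 1 lower, beside 14.9% and 10.9% of all genes. The longest transcript gave 0 higher and 2 lower, beside 15.7% and 11.8% of all genes. The coding sequence gave 11 higher and 0 lower, beside 21.4% and 14.1% of all genes.

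The RefSeq promoter windows of GRCh38.p14, 250 bases before to 50 after the gene start, were matched for 39 of the 53 genes and searched on both strands for TGATGCAA, letters known as a core of the amino acid response element at which ATF4 acts. This motif was chosen after its matches had been seen. It was found in 4 of 8 cytosolic synthetase promoters, 0 of 25 of initiation factors, 0 of 5 of elongation factors and 0 of 1 mitochondrial, beside 252 of all 27305 promoters (0.923%) and 21 of 4189 of the table's genes (0.501%). The windows of 30 bases around it are shown because the 4 genes did not move together; each is written 5′ to 3′ on the gene's strand, and capitals mark the motif, as TTGCATCA where it lies on the other strand.
AARS1 (GRCh38.p14 chr16:70289675-70289704, reverse strand): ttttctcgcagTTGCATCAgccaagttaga
MARS1 (GRCh38.p14 chr12:57488053-57488082, forward strand): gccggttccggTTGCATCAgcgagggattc
NARS1 (GRCh38.p14 chr18:57621804-57621833, reverse strand): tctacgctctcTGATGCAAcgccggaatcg
TARS1 (GRCh38.p14 chr5:33440956-33440985, forward strand): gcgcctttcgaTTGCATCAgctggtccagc

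Of these 4 genes, AARS1 and MARS1 were higher, at 0.15 and 0.083, and NARS1 and TARS1 lower, at -0.42 and -0.32. With offsets from the representative transcript the 4 stood at 0.052, -0.015, -0.16 and 0.0099, of which NARS1 was called. With offsets from coding sequences AARS1, MARS1 and TARS1 were called higher, at 0.20, 0.12 and 0.14, and NARS1 was not called. A match in letters is no evidence of a bound site, and ATF4 itself has no row in the table.

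The mitochondrial synthetases were represented by AARS2 and RARS2, of 17 listed. RARS2, the mitochondrial arginine enzyme, had 231, 235 and 241 counts in the C1s-CM libraries, against 288, 295 and 382 counts in the control CM libraries. AARS2, the mitochondrial alanine enzyme, had 792, 877 and 846 counts in the C1s-CM libraries, against 701, 819 and 764 counts in the control CM libraries. RARS2 was lower, with a log2 fold change of -0.43 ± 0.0935 (SE), adjusted p = 1.55e-04, and AARS2 higher, with 0.15 ± 0.0551 (SE), adjusted p = 0.0112, and for neither gene did the groups overlap once scaled. The call of AARS2 was lost without control CM library 3. With offsets neither was called (-0.15 and -0.057), but RARS2 was called lower, at -0.25, with offsets from the longest transcript. Before offsets the mitochondrial enzyme had the direction of its cytosolic counterpart in each case, and with offsets from the representative transcript the signs were opposite, with AARS1 at 0.052 and RARS1 at 0.11, neither called. The count ratio of AARS1 to AARS2 was 11.18, 11.05 and 10.75 in C1s-CM, against 11.65, 10.16 and 11.40 in control CM, which overlap. The count ratio of RARS1 to RARS2 was 4.19, 4.66 and 4.23 in C1s-CM, against 3.88, 4.10 and 3.34 in control CM, which do not overlap.

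Other genes of translation, listed by role and not by symbol, had a row for 23 of 53. Of these, 9 were higher and 14 lower, beside 50.9% and 48.5% of all genes. The 3 of termination and ribosome rescue were lower (ETF1, the release factor, at -0.18, ABCE1, the recycling factor, at -0.27, and HBS1L at -0.39). The 6 mitochondrial translation factors gave 1 higher, TUFM at 0.25, and 5 lower, from GFM2 at -0.25 to MTRF1 at -0.92. The eIF2 phosphatase subunits were opposed, with the stress-induced PPP1R15A at 0.17 and the constitutive PPP1R15B at -0.30. The scaffolds of the multisynthetase complex were opposed too, AIMP2 at 0.25 and AIMP1 at -0.50. With offsets PPP1R15A stood at -0.046 and PPP1R15B at 0.053, each on the other side of 0, AIMP2 at 0.14 and AIMP1 at -0.18, and none of the 4 was called. With offsets 3 of the 23 were called higher (ETF1 at 0.18, ABCE1 at 0.24 and PDCD4, an inhibitor of the eIF4A helicase, at 0.23). In that fit 1 was called lower (PABPC1, the poly(A)-binding protein, at -0.14), beside 14.9% of all genes higher and 10.9% lower. Offsets from coding sequences gave 10 higher and 1 lower, beside 21.4% and 14.1% of all genes. The mitochondrial translation factors had 0 of 6 called with offsets from the representative transcript, beside 25.8% of all genes.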

How the data were processed

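RNA was measured in 6 libraries of HMC3 cells, 3 per group, and analysed as raw counts per gene. The authors deposited these as whole-number counts without normalization. Per the file headers, each gene also has p-values, raw and adjusted, and a log2 fold change from the authors' comparison. The log2 fold changes in the authors' deposited table had the same sign as here for 53 of 53 genes. Per the submitters' processing notes, FastQC 0.11.9, Trim Galore 0.6.7, HISAT2 2.2.1 and DESeq2 1.40.2 were used with GRCh38. The counting program, its gene annotation and whether strand was used remain not given in the sources used here. Reads of overlapping genes may therefore be mixed, and 32 of the 53 genes have an exon that overlaps another gene. Genes with near-identical pseudogenes, named for 23 of the 53, are uncertain where reads could be split.

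Counts were fitted with edgeR 4.0.16 in R 4.3.3, with TMM scaling, filterByExpr, group as the only term and the two-sided quasi-likelihood test, adjusted by Benjamini-Hochberg over all 5116 genes tested at a threshold of 0.05. Tests on genes already selected on these libraries give no independent evidence of a change. Offsets came from a loess fit of log2 CPM (prior count 2) on GC content and log2 length per library (span 0.3, 5112 genes) with GENCODE 29 transcripts. Offsets from coding sequences (5021 genes) and the paired ratios were added after the data had been seen. Full values are given for the 5 genes per class with the smallest p, the 3 with the smallest p with offsets, and the eIF2 kinase, eIF4E-binding protein and eEF2 kinase genes with a row. The members and lists were chosen with earlier results of these data known. The values of 1 of these genes are not reported here, though it is counted in its class. EPRS1 was included by name, as its letters miss the symbol pattern. Alternatives were RLE scaling, total counts, DESeq2 1.42.0, no filter, a replicate block and leaving out each library. The steps were tested on simulated data. No sequencing depth can be had from a table of selected genes, so how depth limits precision cannot be read from it.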

Additional observations from a re-analysis of the deposited data

How the results depend on the processing

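Libraries 1 to 3 of each group share numbers in the labels, but same-numbered libraries did not deviate together (correlations of -0.128, -0.0874 and -0.0031), so the numbers were not taken to pair them. With a replicate block 5054 genes were called, against 5086 without it, and YARS1 and WARS1 of the 53 were no longer called, at 0.075 and 0.076. RLE scaling also lost YARS1 and WARS1, and DESeq2 lost YARS1, WARS1, MARS1, EIF3B and EIF2B4, so that 3 cytosolic synthetases were called higher by it. Dropping the filter changed no call among the 53.

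Leaving out 1 library gave 4996 to 5051 called genes, 9 to 11 initiation factors higher, 3 to 6 cytosolic synthetases higher and 0 to 1 mitochondrial synthetase higher. The losses were YARS1, WARS1, MARS1, EIF3B, EIF2B4 and AARS2, the last without control CM library 3. The initiation median ran between -0.24 and -0.19. Calls of lower genes in each class, and of higher elongation factors, were the same in each of these 6 fits.

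With libraries scaled by total counts alone, 5 initiation factors, 2 cytosolic synthetases, 0 mitochondrial synthetases and 3 other translation genes were higher, and the class medians were -0.35 for initiation, 0.010 for elongation, -0.19 for cytosolic and -0.27 for mitochondrial synthetases. The sign turned for YARS1 (-0.051), WARS1 (-0.049), MARS1 (-0.043), EEF1B2 (-0.081) and EIF3B (-0.038). AARS1, AARS2, EIF2B2, EIF2B4, EIF3F, EIF3I and EIF4G1 kept their sign but were no longer called.

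The offsets for GC content and length changed most. Genes called were 1320 with the representative transcript, 1232 with the replicate block added, 1408 with the longest transcript and 1780 with the coding sequence. In that order, initiation factors called higher were 13, 11, 11 and 16 and lower 6, 4, 8 and 2, and of the 53 genes EIF3B (-0.087), EIF3I (0.076), EIF3K (0.074) and EIF3L (-0.066) lost their calls when the block was added. Elongation factors called higher were 0, 0, 0 and 1 and lower 1, 1, 2 and 0. Cytosolic synthetases called higher were 1, 1, 0 and 11 and lower 1, 1, 2 and 0, and mitochondrial synthetases higher 0 in each fit and lower 0, 0, 1 and 0. Other translation genes called higher were 3, 4, 3 and 10 and lower 1, 1, 2 and 1. The class medians, in the same order, were -0.017, -0.017, 0.041 and 0.087 for initiation, 0.011, 0.012, -0.0086 and 0.044 for elongation and 0.033, 0.033, -0.0048 and 0.18 for cytosolic synthetases, and that of mitochondrial synthetases was 0.010 with the coding sequence.

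With the representative transcript the sign turned to above 0 for LARS1 (0.079), TARS1 (0.0099), RARS1 (0.11), EEF1E1 (0.064), EIF5A2 (0.075), EIF3M (0.15), EIF4E (0.19), EIF2S1 (0.16), EIF1AX (0.28), EIF3E (0.098), EIF3J (0.15), EIF5 (0.22), EIF2S3 (0.14), EIF4G2 (0.17) and EIF4B (0.038). It turned to below 0 for YARS1 (-0.083), MARS1 (-0.015), EEF1A2 (-0.038), EIF3B (-0.087), EIF2B4 (-0.044), EIF4G1 (-0.017), EIF3F (-0.027), EIF5A (-0.036), EIF3G (-0.027), EIF4EBP1 (-0.061) and AARS2 (-0.057). Adding the replicate block turned the same 26 genes, with no value moved by more than 0.00284, and gave another rounded value for LARS1 (0.080), TARS1 (0.0095), YARS1 (-0.082), EEF1E1 (0.061), EEF1A2 (-0.039), EIF5A2 (0.076), EIF3J (0.16), EIF4B (0.037) and AARS2 (-0.056).

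With the longest transcript the sign turned to above 0 for LARS1 (0.048), RARS1 (0.026), EIF5A2 (0.041), EIF4A2 (0.094), EIF3M (0.12), EIF4E (0.19), EIF2S1 (0.13), EIF1AX (0.25), EIF3E (0.062), EIF3J (0.10), EIF5 (0.19), EIF2S3 (0.085) and EIF4G2 (0.29). It turned to below 0 for YARS1 (-0.11), WARS1 (-0.014), MARS1 (-0.064), EEF2 (-0.013), EEF1A2 (-0.0045), EIF3B (-0.10), EIF4G1 (-0.035), EIF5A (-0.062), EIF3G (-0.022), EIF4EBP1 (-0.038) and AARS2 (-0.076).

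With the coding sequence, an alternative chosen after seeing the data, it turned to above 0 for EPRS1 (0.12), LARS1 (0.17), TARS1 (0.14), RARS1 (0.32), EEF1A1 (0.025), EIF2A (0.070), EIF4A2 (0.021), EIF3M (0.087), EIF2S1 (0.11), EIF1AX (0.062), EIF2S2 (0.17), EIF3E (0.23), EIF3J (0.087), EIF5 (0.24), EIF2S3 (0.26), EIF4G2 (0.25), EIF4B (0.074), EIF3L (0.14) and RARS2 (0.075), and to below 0 for EIF4EBP1 (-0.049) and AARS2 (-0.055). The cause of these changes was not tested. The table holds only part of each library, so what depth would limit cannot be read from it.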
